A study of Arabidopsis thaliana with 4 samples.

Results

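Histone H2B is one of the core proteins around which DNA is wrapped, and Arabidopsis thaliana carries a family of genes for it. A list of 10 such loci was followed here, with members taken by locus name. The platform annotation listed a probe set, the group of short oligonucleotides that reports on 1 gene, for 9 of the 10, out of 13333 loci with a matched probe set. No probe set was listed for HTB9 (AT3G45980), which is not analysed here.

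RNA came from Col-0 plants, a standard laboratory accession, grown in soil under continuous light, and no mutant or transgenic line was used. Young axillary shoots taken 24 h after decapitation, the removal of the main shoot tip, made up 1 group (2 arrays), and axillary buds taken before decapitation made up the other (2 arrays). They are called shoot arrays and bud arrays 1 and 2. The median signal per array lay between 40.6 and 46.3, and across the probe sets tested log2 signals correlated at r = 0.957 between the shoot arrays and 0.952 between the bud arrays, where genes are not independent replicates. No buds of intact plants stand beside the shoots at the later time, so decapitation, wounding, age and a different make-up of the tissue cannot be told apart, and "higher" or "lower" names the groups only. In whole organs, fewer cells of a type and less RNA per cell also cannot be told apart.

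In a nucleosome, dimers of H2B with H2A lie on either side of the inner H3 and H4 histones. Canonical core histones are made mainly while DNA is being copied, since each round of replication needs new nucleosomes, so their transcripts are known as marks of cells in S phase. A ubiquitin group can be attached to H2B by the ligases HUB1 and HUB2 and removed again, a cycle tied to active transcription.

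Several H2B genes were higher in the shoots. Of the 9 with a probe set, 6 were bright enough to be tested, at a geometric mean signal over the 4 arrays of at least 23.1, and 4 of these 6 rose: AT2G37470, HTB2, HTB1 and HTB11, by log2 fold changes of 1.00 to 1.77. The other 2 did not pass: HTB4 had a log2 fold change of 0.69 and AT2G28720 had −0.46. The test was limma across all 13648 probe sets tested, with a Benjamini-Hochberg adjusted p of 0.05 as the threshold. Of all probe sets tested, 22.1% were called, 10.2% as higher and 12.0% as lower. In 4 of the 6 members both shoot signals were above both bud signals and in 1 both were below; among all probe sets tested the groups did not overlap at 65.2%, with shoots higher at 29.7% and lower at 35.5%. The median log2 fold change was 1.26 over the 6 members, against −0.062 over all probe sets tested. A 3' to 5' signal ratio of actin control probe sets, which reflects RNA integrity and labelling, moved with the groups, at 0.990 and 1.14 on the shoot arrays against 1.66 and 1.38 on the bud arrays. The part of these ratios in the result was not tested. Ratios of 3 older control sets were also lower on both shoot arrays: 2.13 and 3.19 against 5.81 and 6.67 on bud arrays for actin, 0.714 and 0.601 against 1.51 and 0.812 for GAPDH, and 0.966 and 0.973 against 1.04 and 1.02 for ubiquitin. The newer control sets of GAPDH (1.14 and 0.938 on shoot arrays, 1.20 and 1.08 on bud arrays) and ubiquitin (0.718 and 0.887 on shoot arrays, 0.704 and 0.963 on bud arrays) overlapped between the groups.

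AT2G37470 gave signals of 213 and 195 on the shoot arrays and 48.8 and 73.1 on the bud arrays. The 2 shoot arrays agreed closely and both lay far above both bud arrays. The means were 204 ± 13.0 in shoots and 60.9 ± 17.2 in buds (SD, n = 2 each), a ratio of geometric means of 3.41 (95% interval 2.30 to 5.06, adjusted p = 0.00449). This was a larger log2 fold change than that of 98.9% of all probe sets tested.

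HTB2 gave 486 and 362 on the shoot arrays, against 113 and 145 on the bud arrays. The groups were well apart, and the lower shoot signal was above the higher bud signal. HTB2 was 3.28-fold higher in the shoots (95% interval 2.26 to 4.75, adjusted p = 0.00409), with means of 424 ± 87.5 in shoots and 129 ± 23.1 in buds (SD, n = 2 each).

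HTB1 was higher in the shoots as well. Its signals were 615 and 478 on the shoot arrays and 176 and 202 on the bud arrays, again without overlap. The means were 547 ± 97.1 in shoots and 189 ± 18.2 in buds (SD, n = 2 each), and the fold was 2.87 (95% interval 2.04 to 4.04, adjusted p = 0.00464). With any 1 of the 4 arrays left out, the log2 fold changes of AT2G37470, HTB2 and HTB1 lay between 1.34 and 2.06, and each passed. Such a fit has a single array in 1 group, which is assumed to vary like the other group, so here and below its p-values are weak support.

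HTB11 (AT3G46030), which lies near HTB9 on the same chromosome, changed less in size. It gave 387 and 332 on the shoot arrays against 159 and 204 on the bud arrays, and the groups did not overlap. It was 1.99-fold higher in the shoots (95% interval 1.42 to 2.81, adjusted p = 0.0161), with means of 360 ± 38.9 in shoots and 181 ± 32.0 in buds (SD, n = 2 each). HTB11 no longer passed when shoot array 1 (log2 fold change 0.89, adjusted p = 0.106) or bud array 1 (0.81, adjusted p = 0.0609) was left out.

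HTB4 had the largest spread between replicates of the tested members. Its signals were 808 and 302 on the shoot arrays and 261 and 361 on the bud arrays, so shoot array 1 stood far above the other 3 arrays, while shoot array 2 lay between the bud arrays. The means were 555 ± 358 in shoots and 311 ± 70.6 in buds (SD, n = 2 each), and the log2 fold change of 0.69 had a 95% interval of −0.26 to 1.64 (adjusted p = 0.264). The gap of 1.42 on the log2 scale between the shoot arrays was wider than that of 99.1% of the probe sets tested, whose median gap was 0.24. Without shoot array 2 the log2 fold change was 1.40 (adjusted p = 0.0185), and without shoot array 1 it was −0.023 (adjusted p = 0.973). The value for HTB4 thus depended on which shoot array was kept.

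AT2G28720 was the tested member whose signal was lower in the shoots. It gave 62.7 and 78.2 on the shoot arrays against 93.7 and 98.9 on the bud arrays. Both shoot signals lay below both bud signals. The means were 70.5 ± 11.0 in shoots and 96.3 ± 3.63 in buds (SD, n = 2 each), and the log2 fold change of −0.46 (95% interval −0.97 to 0.056) did not pass (adjusted p = 0.176). The upper end of this interval lay below the log2 fold changes of the 4 called members.

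**Figure D1:**
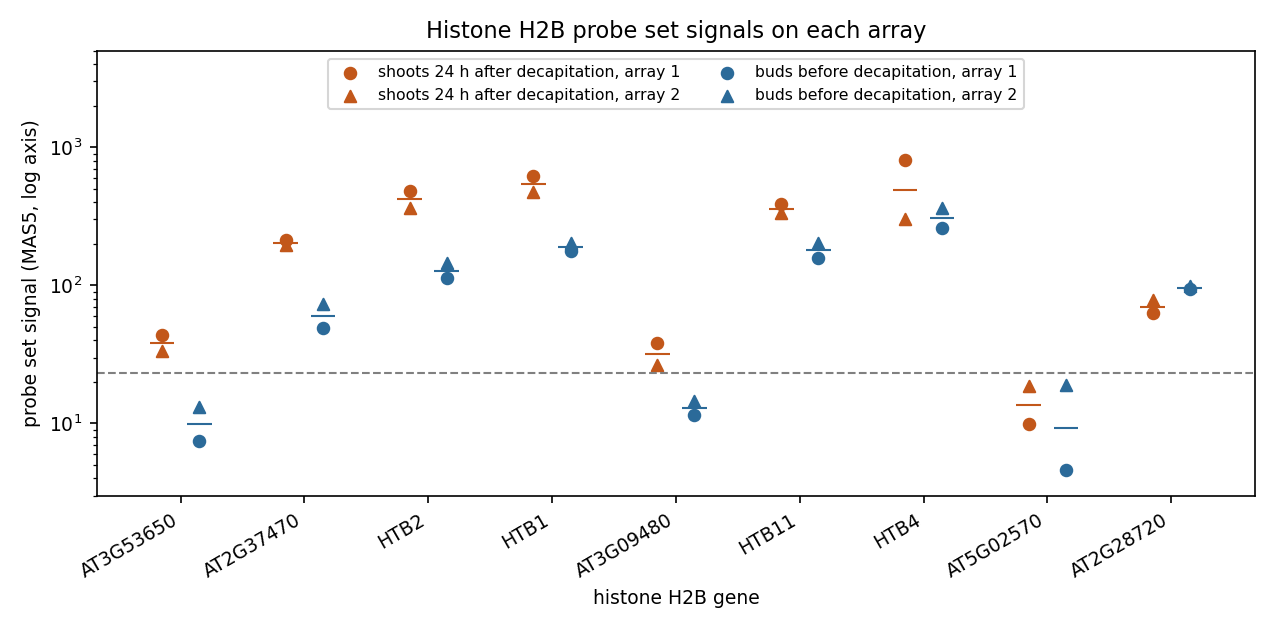
Probe set signal (log axis) of the 9 H2B genes on each of the 4 arrays, shoots at left and buds at right of each gene. Circles are arrays 1, triangles arrays 2, short bars geometric means, and the dashed line is the geometric mean of 23.1 that a probe set needed to be tested; genes run from the largest to the smallest fold change. For AT2G37470, HTB2, HTB1 and HTB11 both shoot signals lie above both bud signals, while HTB4 overlaps and AT2G28720 runs the other way.

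**Figure D2:**
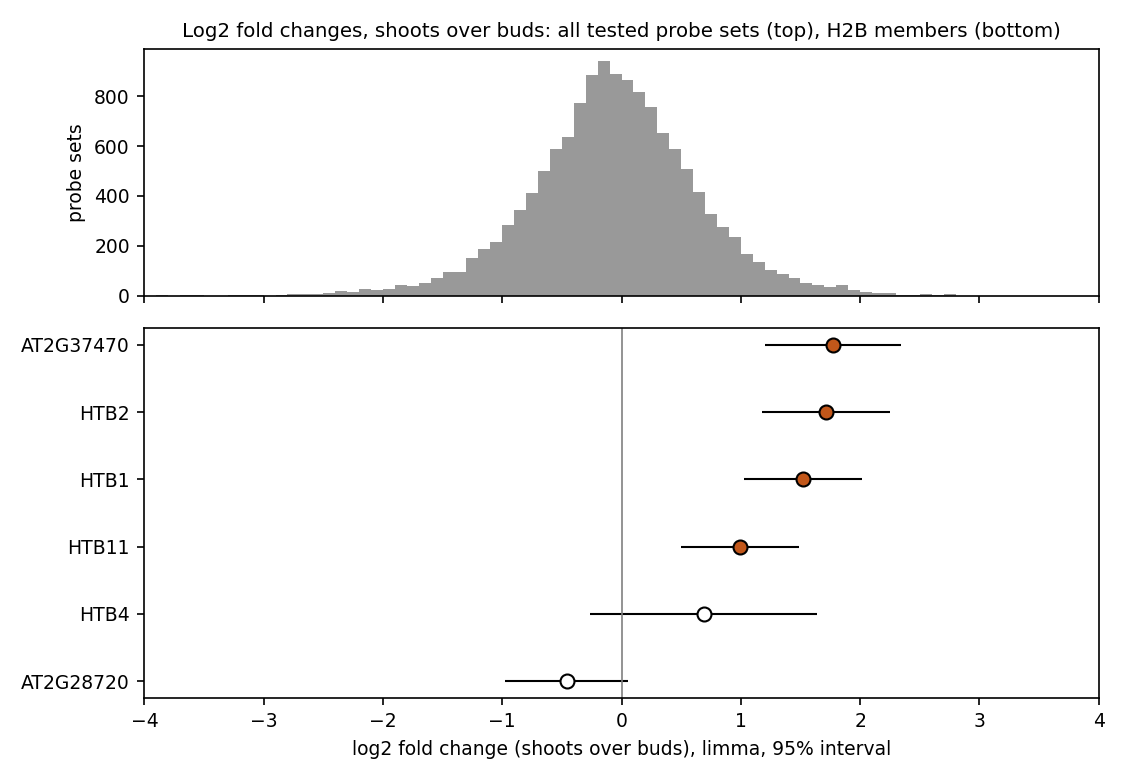
Log2 fold changes of shoots over buds for all 13648 probe sets tested (top, number of probe sets per bin) and for the 6 tested H2B genes (bottom), with 95% limma intervals as lines. Filled points passed the test; 4 lie at 1.00 or above, HTB4 at 0.69 and AT2G28720 at −0.46.

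The 3 dimmest members were not tested, and their values are given without a call. AT3G53650 gave 43.7 and 33.6 on the shoot arrays and 7.46 and 13.2 on the bud arrays, and AT3G09480 gave 38.3 and 26.3 on the shoot arrays and 11.6 and 14.4 on the bud arrays. In both genes the shoot signals were above 23.1 and the bud signals below it, where the signal was not shown to exceed background, so the sizes of their differences (log2 1.95 and 1.30) are uncertain. AT5G02570 gave 9.86 and 18.7 on the shoot arrays and 4.58 and 19.0 on the bud arrays, so the groups overlapped. A further H2B gene outside the 10 loci, AT1G08170, which encodes the divergent variant H2B.8 known from sperm and seeds, was as dim, with 11.6 and 5.55 on the shoot arrays and 11.2 and 1.71 on the bud arrays.

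The bud arrays differed in a shared way across the family, and the shoot arrays in most members. The 9 members include those that were not tested, whereas the shares beside them cover tested probe sets only. Bud array 1 was below bud array 2 in 9 of the 9 members, whereas this was so for 47.4% of all probe sets tested. Shoot array 1 was above shoot array 2 in 7 of the 9, the exceptions being AT2G28720 and AT5G02570, against 56.2% of all probe sets tested. The coding sequences of H2B genes are much alike, so 1 probe set may also capture RNA of another member; this was not tested, as probe sequences were not used here.

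The paralogues were next compared with each other. Because signals of different probe sets cannot be set against each other as levels, only changes were compared, as the log2 signal of a gene minus the mean log2 signal of the other 5 tested members on the same array. For AT2G28720 this difference was −2.87 and −2.03 on the shoot arrays, against −0.49 and −0.81 on the bud arrays. Relative to the other members it was thus lower in both shoots, by a change of −1.80 on the log2 scale (95% interval −2.74 to −0.86, limma adjusted p = 0.000732). In that fit, which measures every gene against the rising H2B members, 73.5% of all probe sets were called, 34 as higher and 9992 as lower. The same subtracted values enter every probe set, so p-values of this kind are too small, and the call was lost without shoot array 1 (−1.38, adjusted p = 0.0730).

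After AT2G28720, the next largest relative changes were those of AT2G37470 and HTB2, both upward. The difference of AT2G37470 from the other 5 was −0.75 and −0.45 on the shoot arrays against −1.62 and −1.34 on the bud arrays, a relative change of 0.88 (95% interval 0.12 to 1.64, adjusted p = 0.0451, in a fit that called 53.2% of all probe sets). That of HTB2 was 0.68 and 0.62 on the shoot arrays against −0.18 and −0.15 on the bud arrays, a relative change of 0.81 (95% interval 0.10 to 1.52, adjusted p = 0.0462, 56.1% called). Both passed narrowly. For AT2G37470 the adjusted p was 0.190 with bud array 1 left out, 0.130 with shoot array 1 left out and 0.210 with shoot array 2 left out, and HTB2 did not pass with any 1 array left out (adjusted p from 0.0636 to 0.249). Both also missed the threshold with quantile normalization (adjusted p = 0.0543 for AT2G37470 and 0.0861 for HTB2) and without the variance trend (adjusted p = 0.0510 for AT2G37470 and 0.0673 for HTB2).

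HTB1, HTB11 and HTB4 did not pass against the others. The relative change of HTB1 was 0.58 (95% interval −0.18 to 1.34, adjusted p = 0.178, 56.0% of all probe sets called). That of HTB11 was −0.051 (−0.80 to 0.70, adjusted p = 0.906, 64.2% called), and that of HTB4 was −0.42 (−1.09 to 0.25, adjusted p = 0.232, 77.5% called). In each of these fits most calls were lower, such as 113 higher and 7531 lower for HTB1. The 3 intervals do not show that these genes changed alike. HTB4 again turned on single arrays, at −1.05 without shoot array 1, where it was called lower, and 0.21 without shoot array 2.

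Pair by pair, 15 combinations of tested members were compared by the log2 difference between their signals on each array. In 12 of the 15 the shoot and bud differences did not overlap, while among all pairs of the probe sets tested this was so for 66.2%; the 15 share 6 genes and are not independent. The exceptions were AT2G37470 with HTB1, AT2G37470 with HTB2 and HTB4 with HTB11. The closest pair in change was HTB2 and AT2G37470, whose log2 fold changes (HTB2 minus AT2G37470) differed by −0.057, and the widest AT2G28720 and AT2G37470, by −2.23 (AT2G28720 minus AT2G37470). With 2 arrays in each group the smallest two-sided p of an exact permutation test is 0.33, so no pair could pass on its own, with or without adjustment over the 15.

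**Figure D3:**
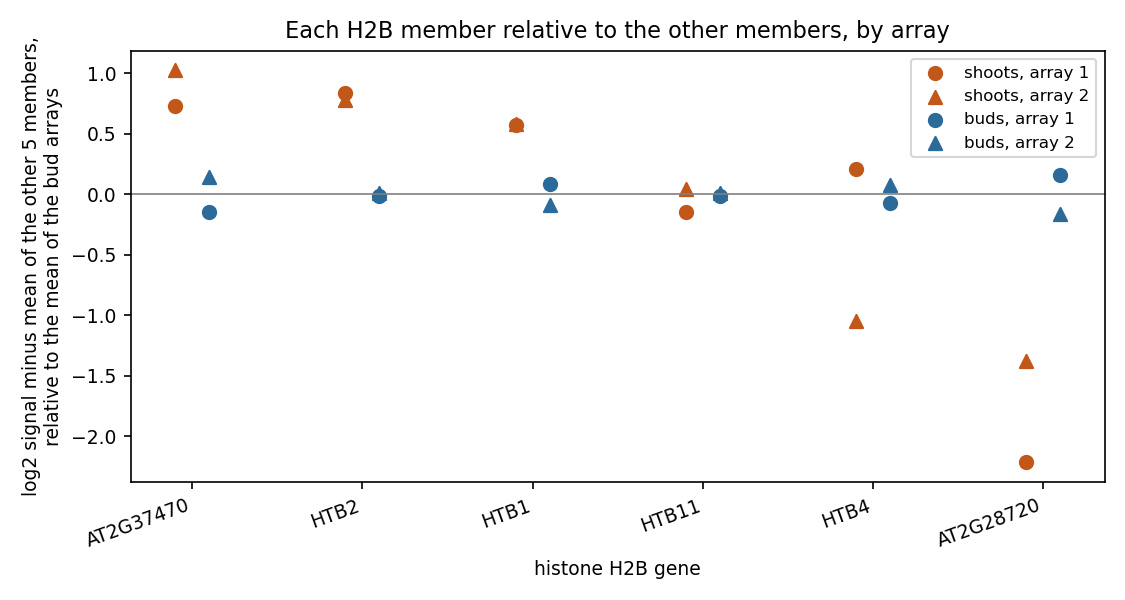
Log2 signal of each tested H2B gene minus the mean of the other 5 on the same array, set to 0 at the mean of the bud arrays, with shoots at left and buds at right (circles arrays 1, triangles arrays 2). The shoot arrays lie above the bud arrays for AT2G37470, HTB2 and HTB1 and below them for AT2G28720, and they overlap or straddle them for HTB11 and HTB4.

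**Figure D4:**
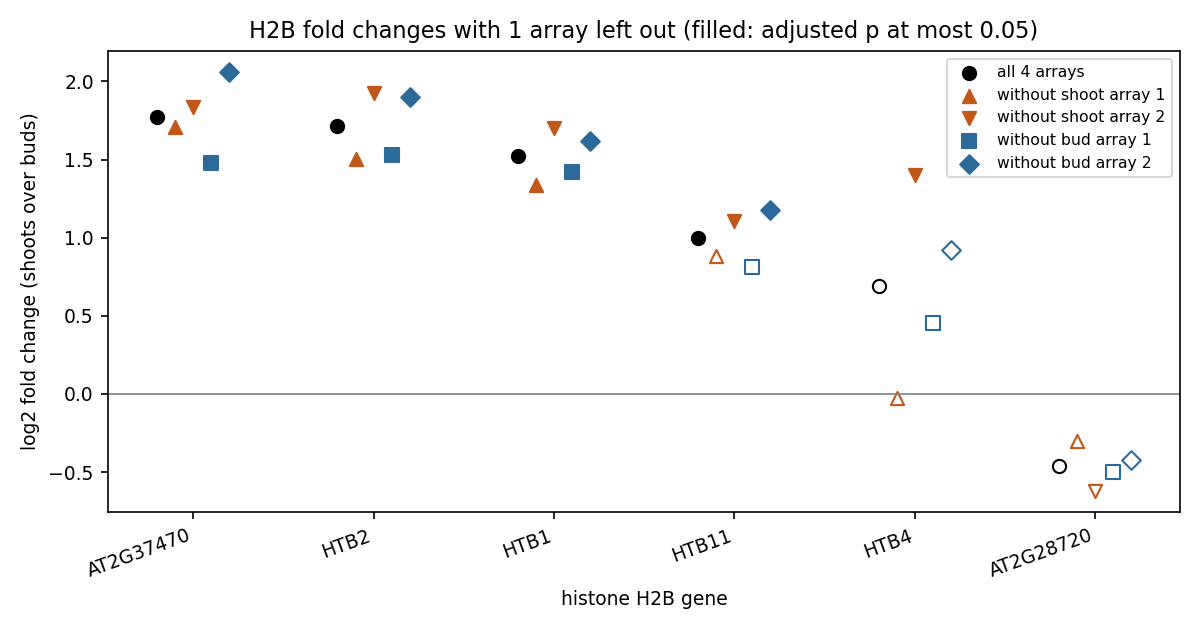
Log2 fold change of shoots over buds for the 6 tested H2B genes with all 4 arrays and with each array left out; filled symbols have an adjusted p of at most 0.05. AT2G37470, HTB2 and HTB1 stay filled throughout, HTB11 is open without shoot array 1 or bud array 1, and HTB4 ranges from −0.023 to 1.40.

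The genes around the H2B loci did not share one direction. Other core histone genes lie close to many members in the reference gene order: 7 of the 10 had another listed core histone gene within 10 genes on either side, such as HTA12, an H2A gene next to AT5G02570, and an H4 gene, AT1G07820, 3 genes from HTB1. The members without one were HTB2, AT2G37470 and AT3G09480. HTB2 and AT2G37470 had the 2 largest fold changes among the tested members, but the interval of HTB1, 3 genes from AT1G07820, overlapped theirs. The untested AT3G53650, with a larger but uncertain log2 difference of 1.95, lies 7 genes from the H4 gene AT3G53730. Whether such grouping goes with the size of change was not tested, and its share among other genes was not counted. Immediate neighbours with a tested probe set moved in different ways. AT2G37480, next to AT2G37470, fell (230 and 221 on shoot arrays, 452 and 370 on bud arrays, log2 fold change −0.86, adjusted p = 0.0210). AT3G53670, next to AT3G53650, fell too (−0.78, adjusted p = 0.0240), and AT3G09470, next to AT3G09480, rose (0.71, adjusted p = 0.0430). The neighbours of HTB2 (AT5G22875, −0.13, adjusted p = 0.802) and of HTB4 (AT5G59900, 0.39, adjusted p = 0.351) did not pass.

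Other genes of nucleosome assembly were covered thinly by the annotation. Of 31 further core histone loci listed, 2 had a probe set and 1 was tested: HTR12, the centromeric H3 variant, gave 55.8 and 36.7 on the shoot arrays against 16.2 and 21.5 on the bud arrays (log2 fold change 1.28, adjusted p = 0.0275; 0.219 without shoot array 1 and 0.0798 without bud array 1). Both its bud signals lay below 23.1 and were not shown to exceed background, so the size of this change is uncertain, and it passed the filter only through its shoot signals. Of 20 loci for histone chaperones and assembly factors, 4 were tested and 0 passed in limma after adjustment, with 1 of the 4 at an unadjusted p under 0.05. Of all probe sets tested, 22.1% passed. The median log2 fold change of the 4 loci was 0.34. They included AT4G37210, related to the H3 chaperone NASP, at 279 and 210 on the shoot arrays and 170 and 141 on the bud arrays (log2 fold change 0.65, adjusted p = 0.0719), and SGA2 (ASF1A), a chaperone of H3 and H4, at 0.44 (adjusted p = 0.217). Whether chaperone and H2B genes differ in their change was not tested.

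Genes that write or erase the ubiquitin mark on H2B were covered by 3 of 14 loci, all tested. All 3 belong to the removal of the mark, and the ligase genes HUB1 and HUB2 had no listed probe set. Of the 3, 0 rose and 1 fell, against 10.2% and 12.0% of all probe sets tested, at a median log2 fold change of −0.08. AT5G58575, which encodes SGF11, a subunit of a deubiquitination module, gave 32.6 and 34.0 on the shoot arrays and 105 and 54.4 on the bud arrays (log2 fold change −1.18, adjusted p = 0.0372). The bud signals differed from each other widely, and the call was lost when bud array 1 (−0.71, adjusted p = 0.182), shoot array 1 (adjusted p = 0.147) or shoot array 2 (adjusted p = 0.0869) was dropped. UBP26, which encodes a ubiquitin protease acting on H2B, gave 84.5 and 76.2 on the shoot arrays and 65.9 and 68.5 on the bud arrays (log2 fold change 0.26, adjusted p = 0.429).

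DNA replication genes, whose products act in the same phase of the cell cycle, were tested at 6 of 41 listed loci. Of the 6, 4 rose and 0 fell, against 10.2% and 12.0% of all probe sets tested, with a median log2 fold change of 1.04. PRL, the MCM7 subunit of the replicative helicase, gave 344 and 241 on the shoot arrays and 77.8 and 91.4 on the bud arrays (log2 fold change 1.77, adjusted p = 0.00385), beside 1.71 for HTB2 and 1.77 for AT2G37470. ICU2, which encodes the large polymerase subunit that extends primers at replication starts, gave 111 and 79.7 on the shoot arrays and 33.5 and 25.8 on the bud arrays (log2 fold change 1.67, adjusted p = 0.00668). Without shoot array 1 fewer of the 6 passed, and calls were also fewer among all probe sets tested. The log2 fold changes of PRL and ICU2 were then 1.52 and 1.44.

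The genes whose profile over the 4 arrays was most like the median H2B profile were sought among 7275 other named loci, by Euclidean distance between log2 signals taken relative to each gene's own mean. The median profile was 0.95 and 0.48 on the shoot arrays and −0.77 and −0.46 on the bud arrays. The nearest were AT5G02590 (distance 0.104), AT1G14060 (0.136), AT2G18330 (0.139), AT4G17000 (0.142) and VPS2.2 (0.152), with log2 fold changes from 1.31 to 1.38. These loci were chosen by this likeness, so fold changes near the H2B median follow from the choice. Likeness over 4 arrays is a description of these arrays only.

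As a check of the tissue, few defining markers were covered. In the list for shoot meristem and axillary bud, 3 of 11 loci had a probe set. YAB3, a gene of organ polarity in young shoot organs, gave 229 and 175 on the shoot arrays and 117 and 114 on the bud arrays (log2 fold change 0.80, adjusted p = 0.0335), whereas LAS, a gene of axillary meristem formation, and CLV3, a stem cell gene, lay below 23.1 on all 4 arrays, with CLV3 between 1.06 and 7.32. Of 7 leaf photosynthesis loci listed, 3 had a probe set. Their summed signals were 1868 and 2035 on the shoot arrays and 2010 and 1655 on the bud arrays and overlapped. LHCB4.3 fell (log2 fold change −0.96, adjusted p = 0.0310), and LHCB4.1 was at 0.57 (adjusted p = 0.137). Summed signals of 3 stomatal lineage loci overlapped too, at 164 and 140 on the shoot arrays and 116 and 169 on the bud arrays. SPCH was at 0.43 (adjusted p = 0.325) and FMA at −0.19 (adjusted p = 0.606). Markers listed for flowers, roots and vessels or phloem had no listed probe set and were not analysed here.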

How the data were processed

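Probe set intensities of 4 ATH1 arrays (2 of shoots, 2 of buds) were used as the authors deposited them. The deposited intensity values are linear signals; the submitters' processing notes name MAS5 and GCOS, without a version. After trimming 2% of the values at either end, every array averaged 100. The authors had thus scaled all arrays to 1 target, which hides any difference in total RNA between samples. Detection calls were not used here.

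The 64 control probe sets were left out, and the 60% of the other 22746 with the highest mean log2 signal were tested (13648). Log2 signals of shoots and buds were fitted with limma (version 3.58.1, R version 4.3.3, lmFit, then eBayes with trend). P-values were adjusted by Benjamini-Hochberg over all probe sets tested. The fit was also run on simulated data, with independent noise and fewer changed probe sets than were called here. That run cannot show how well the calls hold in these data. Fold changes are ratios of geometric means. For the comparison of paralogues the mean log2 signal of the other tested H2B members was subtracted from every probe set of an array before the fit. The number of arrays limits the precision, and no label states that replicate arrays came from different plants, so the p-values cover only the spread between these arrays, which may be technical.

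Probe sets were named through the platform annotation, updated with RefSeq's TAIR10.1 gene table; 13484 matched 1 locus. Of the 9 H2B probe sets, 8 matched by gene ID and 1, of AT3G53650, by its locus name, as its annotated gene ID is not in that table. For a locus with several probe sets the brightest was used in the lists and for the chromosomal neighbours. In the search for nearest profiles the closest probe set of a locus was used. The members and lists were chosen with earlier results of these data known. Genes outside the family were named by a rule: in each list the top 2 loci by p-value and the top 2 by size of change, and the 5 nearest profiles. The chromosomal neighbours and the dim loci LAS, CLV3 and AT1G08170 were named outside it, after their values were seen. Alternatives were other filters, scalings, variance models, a pseudocount, a replicate block and each array left out.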

Additional observations from a re-analysis of the deposited data

How the results depend on the processing

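Across 11 alternatives the number of H2B members called higher was 3 to 5 and the number called lower 0. It was 5 with no filter on dim probe sets, where AT3G53650 passed (adjusted p = 0.0298) and AT3G09480 did not (adjusted p = 0.0684), and 3 to 5 with 1 array left out. The median H2B log2 fold change lay between 1.11 and 1.55, both ends with 1 array left out. Setting the array medians equal raised all log2 fold changes by 0.14 and turned the median over all probe sets tested to 0.079 (−0.062 as deposited); quantile normalization gave 0.0034.

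The comparison among paralogues was the least stable. The number above the others (2) was 1 with no filter or the stricter filter of the upper 40%, and 0 with quantile normalization, no variance trend or a replicate block; with 1 array left out it was 0 to 1. The number below the others was 1, and 0 with the replicate block. Under the block the limma adjusted p was 0.0709 for AT2G28720, 0.224 for AT2G37470 and 0.214 for HTB2. Without shoot array 1 the member called below was HTB4 (−1.05) and not AT2G28720 (−1.38). In its log2 fold change of shoots over buds HTB4 changed sign, at −0.023 without shoot array 1 and 1.40 without shoot array 2. Relative to the other members HTB4 ranged from −1.05 without shoot array 1 to 0.21 without shoot array 2, and HTB11 from −0.14 without shoot array 2 to 0.040 without shoot array 1. Pairs without overlap, in settings chosen after seeing the data, were 11 or 12 of 15 with other scalings, the pseudocount of 0.910 or the stricter filter. They were 24 of 36 with no filter, which lets all 9 members in. This share is near the 66.2% among all pairs of probe sets tested under the main filter. The variance model and the block do not enter these pair counts, which were not run with arrays left out.

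The replicate block, for replicate numbers that only name the arrays (deviations of same-numbered arrays correlated at 0.225 across genes, with 2 pairs), called 2109 probe sets higher and 2548 lower, against 1388 and 1635 without it. With 1 array left out these were 230 to 1181 and 432 to 1468. The block or equal medians each called 1 chaperone locus (AT4G37210, adjusted p = 0.0238 and 0.0305). The replication loci called higher were 2 with the stricter filter and 1 to 4 with 1 array left out. The 1 ubiquitination locus and HTR12 were each at 0 calls with no filter or the stricter filter, which leaves fewer loci tested, and at 0 to 1 with 1 array left out. ICU2, HTR12 and AT5G58575 were not among the probe sets kept by the stricter filter, so their missing calls there are not failed tests. PRL was kept and passed there (limma adjusted p = 0.00284). The cause of the other shifts was not tested. Signals near or below 23.1 limit what can be said of the dim members.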
